A study of Lytechinus variegatus with 64 samples.

Results

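The radial nerve enriched genes of the variegated sea urchin, *Lytechinus variegatus*, were 63 of the 25887 genes counted in polyA RNA sequencing libraries of 64 samples. Levels were expressed as CPM, the count of a gene divided by the total of its library and multiplied by 1000000. A gene was a member when its mean over the 4 radial nerve libraries was at least 10 CPM, when that mean, with 0.5 CPM added, was at least 2 times the mean with 0.5 CPM added of each of the 13 other adult sample types, and when at least 3 of the 4 radial nerve libraries lay above every other type's mean. A cap of 100 genes was not reached. Of the 8337 genes with a radial nerve mean of at least 10 CPM, 0.756% passed. The members were thus chosen by the radial nerve levels themselves, and for that reason the contrast of radial nerve with the other adult types is described below without a test.

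All animals were labelled wild type. Adults came from a commercial supplier, and radial nerve, radial canal, tube foot, axial gland, lantern muscle, esophagus, gut, interambulacral plates, testis, ovary and eggs had 4 libraries each, while mouth, peristomial membrane and rectum had 3. Coelomic fluid and a stage 1 ovary had 1 library each, and 4 spine libraries carried the labels green, mixed, red and white. Gonads of juveniles aged 4.5 months post fertilization (1 ovary, 1 testis and 3 of indeterminate sex) were raised in the laboratory and sequenced by another provider than the adult tissues, so age and provider cannot be told apart. The labels do not say whether libraries of a type came from separate animals or from pools, so the spread between replicates may be technical.

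Echinoderms have no brain. Their central nervous system is a ring around the mouth joined to nerve cords, the radial nerves, of which one runs along each ambulacrum beside the radial canal of the water vascular system and sends branches to the tube feet and body wall. Other tissues hold nerve cells of their own, among them a basiepithelial plexus in the gut and skin and nerve fibres at the bases of the spines. The axial gland is a hemal (circulatory) organ beside the esophagus, and no radial nerve passes through it.

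The members are known here by locus identifier. Neither the count table nor the RefSeq gene table (assembly Lvar_3.0) gives product names, so the roles of the members are not stated and no neuronal marker could be looked up. The tissue label of the nerve libraries was therefore not checked against defining markers. By RefSeq biotype 60 members were protein coding (95.2%, against 96.2% of the genes at 10 CPM or more in radial nerve) and 3 were long non-coding RNAs, namely LOC121411218, LOC121422327 and LOC121415960 (4.76%, against 2.54%). RefSeq lists more than 1 transcript for 11 members (17.5%), compared with 36.0% of all genes at that level.

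Library totals ranged from 13113913 to 59521125 counts, and from 23937380 to 27793795 in the 4 radial nerve libraries, so 3 counts corresponded to at most 0.125 CPM in a nerve library. No pair of libraries held identical counts. The sets of genes that pass the same margins for other types, with no cap on their number and all but 1 library above every other type's mean, were used to gauge how much RNA typical of other tissues each nerve library held. The 160 genes of the eggs set took 1.78%, 7.77%, 3.53% and 3.60% of the counts of nerve replicates 1 to 4, against a median of 2.39% over the libraries of the other adult types, radial nerve left out. The 245 genes of the gut set took 0.271%, 1.89%, 0.181% and 1.17% (median elsewhere, counted the same way, 0.302%), and the 335 genes of the rectum set took 0.132%, 0.222%, 0.189% and 1.73% (0.306%). Nerve replicate 2 was thus the highest of the 4 for the eggs and gut sets and replicate 4 for the rectum set. For the eggs set, nerve replicate 2 was also above every library of the adult types other than eggs, of which radial canal replicate 3 was the highest. No nerve library stood out in that way for the gut and rectum sets, where testis replicate 2 and axial gland replicate 1 were higher. The 724 genes of the testis set took 0.984%, 2.86%, 2.13% and 0.824% (median elsewhere 0.908%). The 81 genes of the lantern muscle set took 1.29%, 1.92%, 2.61% and 1.2% (0.606%), and the 187 genes of the radial canal set took 1.29%, 1.40%, 1.08% and 0.979% (0.510%). All 4 nerve libraries were above the median elsewhere for the lantern muscle and radial canal sets, and also for the esophagus, peristomial membrane, tube foot and axial gland sets. Replicates 1, 2 and 3 were above it for the testis set, and all 4 were below it for the mouth and ovary sets. The part of these in the members' levels was not tested. In bulk tissue, fewer cells of a type and less RNA per cell cannot be told apart.

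The ratio of the radial nerve mean to the next highest adult type, each with 0.5 CPM added, had a median of 2.73 over the 63 members and ran from 2.01 to 15.0. It was at least 4 for 17 members, at least 3 for 27 and under 2.5 for 26. Most members were therefore genes that other adult tissues also contained at a lower level. In 30 members all 4 nerve libraries exceeded every other type's mean, and in 33 members 3 did. For 11 members every nerve library exceeded every one of the 49 libraries of the other adult types, a separation met by 0.132% of the genes at 10 CPM or more in radial nerve. All 11 of those genes were members, and the rule favours that pattern.

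LOC121406007 had the highest ratio. It was at 12.8, 32.9, 54.0 and 83.7 CPM in nerve replicates 1 to 4 (45.9 ± 30.3, SD, n = 4), and the next highest type was axial gland at 2.59 ± 3.15 CPM (n = 4). Its highest level in any other adult library was 7.23 CPM, in axial gland replicate 2, so the nerve libraries stood apart without overlap. No count of it was found in any of the 4 spine libraries, where 3 counts in the shallowest would be 0.171 CPM.

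The pair LOC121425527 and LOC121425491 followed, with a matching order of the nerve libraries. LOC121425527 was at 94.2, 21.9, 45.5 and 20.5 CPM in nerve replicates 1 to 4 (45.6 ± 34.4, n = 4) and at 4.58 ± 4.44 CPM in rectum (n = 3). LOC121425491 was at 235.5, 62.5, 116.7 and 55.5 CPM (118 ± 83.3, n = 4) and at 15.0 ± 7.37 CPM in rectum (n = 3). Both were highest in nerve replicate 1 and lowest in replicate 4, and for both every nerve library was above every other adult library. The highest other library of LOC121425527 was radial canal replicate 2 at 11.7 CPM, and that of LOC121425491 was axial gland replicate 1 at 23.8 CPM.

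LOC121411218, a long non-coding RNA, was the third member of the top 10 that was highest in nerve replicate 1. Its nerve levels were 496, 109, 172 and 164 CPM (235 ± 176, n = 4), with tube foot next at 39.3 ± 6.23 CPM (n = 4). The lowest nerve library was still above the highest tube foot library, at 42.5 CPM. The other long non-coding RNA that separated fully, LOC121422327, varied little between nerve libraries, at 219, 223, 321 and 214 CPM, with rectum next at 87.1 ± 20.7 CPM (n = 3).

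A further group of the top 10 was nearly missing from nerve replicate 1. LOC121409715 was at 0.167, 35.5, 88.9 and 62.6 CPM, against 5.73 ± 6.62 CPM in axial gland (n = 4). LOC121427852 was at 1.71, 108, 66.6 and 145.5 CPM, against 15.0 ± 4.67 CPM in the interambulacral plates (n = 4). LOC121425399 was at 6.22, 212, 824 and 574 CPM, against 62.5 ± 40.1 CPM in radial canal (n = 4). In each of these 3 genes nerve replicate 1 lay below the mean of the next tissue and the other nerve libraries lay well above it. LOC121425399 overlaps another annotated gene, LOC121425400, and the strand setting of the counting is not given in the sources used here, so reads of the 2 genes may be mixed.

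LOC446192 was the most abundant member by counts. It was at 2001, 4128, 19570.4 and 6533 CPM in nerve replicates 1 to 4 (8058 ± 7895, n = 4). Axial gland was next at 1313 ± 1630 CPM (n = 4), with axial gland replicate 2 alone at 3737 CPM, above nerve replicate 1. The gene was also at 2409 CPM in the coelomic fluid library, 3117 CPM in the stage 1 ovary and 1951 CPM in the juvenile testis, all outside the rule.

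LOC121407281 and LOC121412188 each had 1 nerve library far above the other 3. LOC121407281 was at 108, 450.5, 52.0 and 80.7 CPM, with radial canal next at 31.5 ± 18.9 CPM (n = 4). Without nerve replicate 2 its nerve libraries lay between 52.0 and 108 CPM, and the highest other adult library was axial gland replicate 2 at 59.5 CPM. LOC121412188 was at 0.167, 31.8, 493.4 and 76.0 CPM, with eggs next at 28.8 ± 31.6 CPM (n = 4) and 1 egg library at 73.5 CPM. It was higher in the juvenile testis, at 319 CPM, than in 3 of the 4 nerve libraries, and it reached 80.5 CPM in coelomic fluid.

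**Figure D1:**
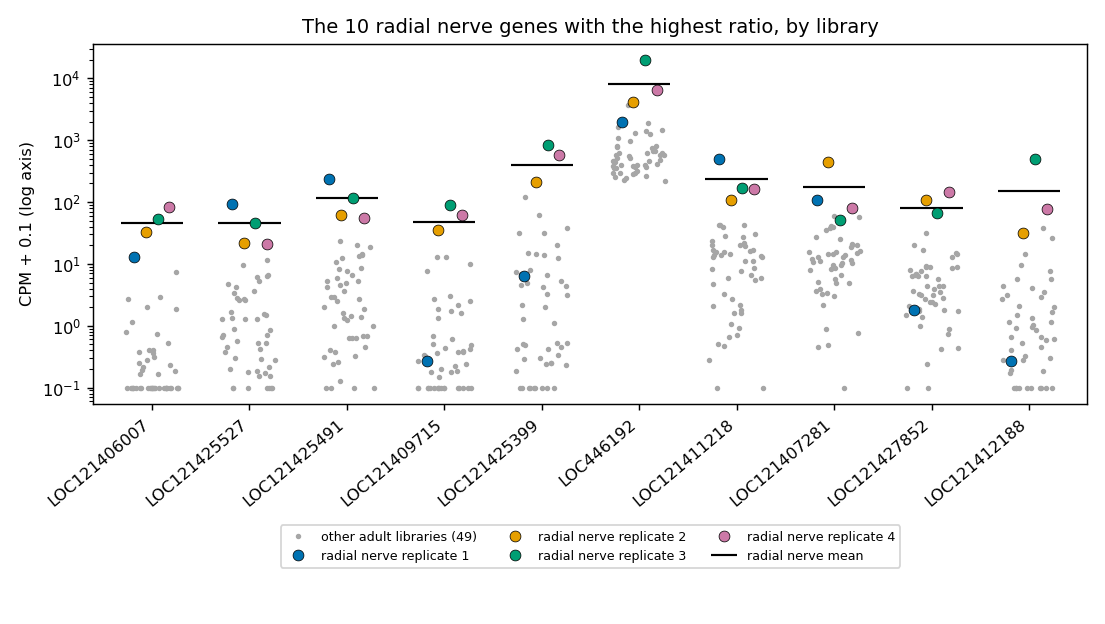
Levels in CPM, with a small constant added (log axis), of the 10 members with the highest ratio. Points are single libraries, from radial nerve and the 49 libraries of the other adult types used by the rule. Spines, coelomic fluid, stage 1 ovary and juvenile gonads are not shown. LOC121425527, LOC121425491 and LOC121411218 have replicate 1 as the highest nerve library, while LOC121409715 and LOC121412188 are at 0.167 CPM in it.

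The coefficient of variation over the 4 nerve libraries had a median of 72.4% over the members, against 37.7% over all genes at 10 CPM or more in radial nerve. It ran from 10.1% for LOC121431976, at 42.2, 33.6, 41.6 and 40.3 CPM, to 153% for LOC121412188. The standard deviation exceeded the mean for 7 members. The rule set no limit on this spread: it used the mean of the same 4 libraries and allowed 1 of them to be low, so it can favour genes with 1 very high or 1 very low library, and the comparison with all genes is a description.

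Replicates 1, 2, 3 and 4 were the highest nerve library for 11, 6, 41 and 5 of the 63 members, against 34.9%, 12.6%, 31.6% and 20.9% of all genes at that level. They were the lowest for 33, 18, 5 and 7 members, against 34.7%, 34.8%, 16.0% and 14.5% of all genes. Replicate 3 was thus the highest library for most members, and replicate 1 the lowest for most. As a share of each member's nerve mean, the median member was at 53.7% in replicate 1, 72.2% in replicate 2, 147% in replicate 3 and 83.9% in replicate 4. These shares describe the libraries that chose the members. Replicate 3 exceeded 200% of the mean for 18 members, replicate 1 for 6, replicate 2 for 3 and replicate 4 for 1.

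The 12 members below 10% of their mean in nerve replicate 1 were LOC121409715, LOC121425399, LOC121427852, LOC121412188, LOC121406046, LOC121410847, LOC121428133, LOC121411550, LOC121410854, LOC121421441, LOC121410349 and LOC121432167. Their lowest level in the other 3 nerve libraries ran from 11.8 CPM for LOC121410847 to 221 CPM for LOC121411550. Only LOC121418427 was that low in nerve replicate 2, at 253, 2.55, 539 and 101 CPM, and only LOC121424486 in replicate 3, at 7902, 2583, 228 and 1124 CPM. No member was that low in replicate 4. LOC121424486 showed a similar imbalance in its next tissue, where axial gland replicate 2 alone reached 4205 CPM and the axial gland mean was 1060 ± 2097 CPM (n = 4).

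Together the members took 1.77%, 1.599%, 3.89% and 1.87% of the counts of nerve replicates 1 to 4. Without LOC446192 the shares were 1.57%, 1.19%, 1.94% and 1.22%, so much of the excess of replicate 3 was that gene. The highest share in another adult library was 1.13%, in axial gland replicate 2, and the median over the other adult libraries was 0.220%.

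**Figure D2:**
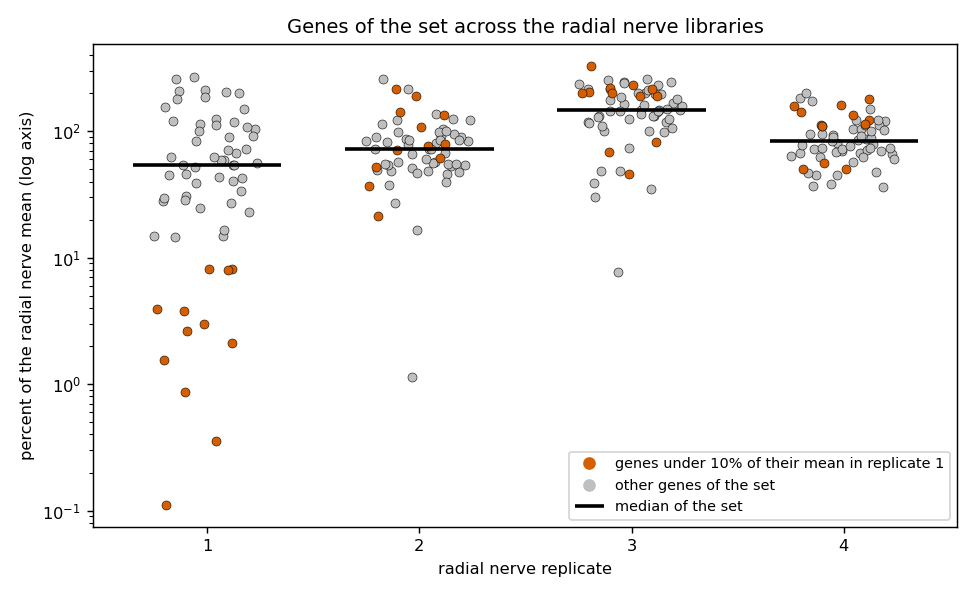
Level of each member in each radial nerve library as a percent of its mean over the 4 libraries (log axis), 1 point a gene. The median member is at 53.7% in replicate 1 and 147% in replicate 3, and the lowest points, under 10% of the mean, are nearly all in replicate 1.

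To see how far the pattern held in a library that had not chosen the genes, the rule was run on 3 nerve libraries, requiring at least 2 of them above every other type's mean, and the remaining library was then read alone. The means of the other types were shared between the 2 steps. Without replicate 1 the rule found 77 genes, of which 16 (20.8%) were at least 2 times every other type's mean in replicate 1, against 2.36% of all genes at 10 CPM or more there. Without replicate 2 it found 86 genes, of which 34 (39.5%) passed in replicate 2, against 0.929%. Without replicate 3 it found 47 genes, of which 33 (70.2%) passed in replicate 3, against 2.06%, and without replicate 4 it found 71 genes, of which 40 (56.3%) passed in replicate 4, against 0.901%. The share was above the background in each of the 4 left-out libraries and was lowest in replicate 1. The genes found had been chosen for low means in the other types, and the background genes had not. The difference from the background, here and by the criterion below, therefore follows in part from the rule. How large that part is was not tested. By the weaker criterion of lying above every other type's mean, 36 of the 77 genes (46.8%) passed in replicate 1, against 11% of all genes. In replicate 2, 66 of the 86 (76.7%) passed, against 5.03%, in replicate 3, 37 of the 47 (78.7%), against 9.29%, and in replicate 4, 64 of the 71 (90.1%), against 5.63%. Of the 63 members, 54, 62, 39 and 60 were found again without replicates 1, 2, 3 and 4.

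Among the other adult types, the members were highest in axial gland, radial canal and tube foot. The median member was at 18.4% of its nerve mean in axial gland, 15.2% in radial canal, 14.1% in tube foot, 12.2% in peristomial membrane and 11.7% in the interambulacral plates. Lantern muscle (10.3%), rectum (10.05%), esophagus (9.37%), mouth (8.003%) and testis (7.90%) followed, then gut (5.33%), eggs (3.48%) and ovary (0.473%). The libraries of neighbours in this order overlapped or were out of order, apart from those of eggs and ovary. The median member lay between 8.23% and 24.2% over the axial gland libraries and between 10.3% and 16.4% over the radial canal libraries, and the ranges of tube foot (9.73% to 13.4%), lantern muscle (6.72% to 14.3%) and rectum (3.27% to 11.6%) overlapped theirs. Ovary stood below all of these, with library medians from 0.214% to 0.633% and with 23, 21, 22 and 5 members at 0 counts in its 4 libraries. The rule capped each of these types at about 50% of the nerve mean, so the levels are descriptions. CPM was not adjusted for composition. The 2055 genes that pass the same rule for ovary took a mean of 59.0% of the counts of the ovary libraries. That leaves a smaller share of the counts, and so a lower CPM, to all other genes there, and its part in the ovary levels was not tested.

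The next highest type was axial gland for 18 members, tube foot for 11, radial canal for 8, rectum and peristomial membrane for 6 each, interambulacral plates and lantern muscle for 4 each, eggs for 2, and testis, gut, esophagus and mouth for 1 each. The count for axial gland turned on single libraries. Of its 18 members, 9 were highest in axial gland replicate 4, 6 in replicate 2, 3 in replicate 3 and none in replicate 1, and the count was 8 without replicate 4, 13 without replicate 2, 21 without replicate 1 and 18 without replicate 3. The members took 0.210%, 1.13%, 0.279% and 0.502% of the counts of axial gland replicates 1 to 4.

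**Figure D3:**
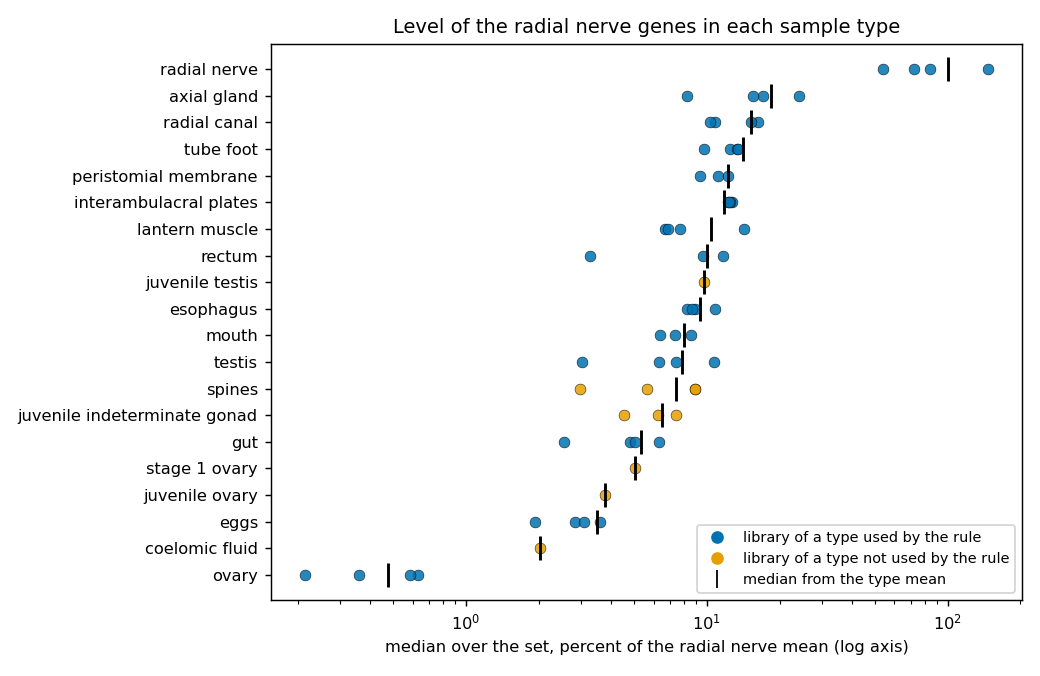
Median level of the members in each group as a percent of the radial nerve mean; points are single libraries and the black tick is the median from the group means. Axial gland is at 18.4%, radial canal at 15.2% and ovary at 0.473%.

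The spine, coelomic fluid, stage 1 ovary and juvenile libraries were not used by the rule. The spines carried the members at a low level, the median member being at 7.46% of its nerve mean over the 4 spine libraries, and at 8.95%, 8.91%, 5.62% and 2.98% in the green, mixed, red and white spines. In each spine library at most 2 members reached 50% of their nerve mean, namely LOC121429486 in green, LOC121417960 and LOC121407558 in mixed and LOC121428641 in white. Of all genes at 10 CPM or more in radial nerve, 75.2%, 81.3%, 75.6% and 75.9% did so in green, mixed, red and white. That difference follows in part from the rule, which kept genes that were low in 13 other types.

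The 5 members highest in spines relative to radial nerve were LOC121428641 (spine mean 48.7% of the nerve mean), LOC121410180 (35.3%), LOC121419418 (33.2%), LOC121417960 (30.9%) and LOC121419336 (29.7%). LOC121410180 was even between spines, at 72.8, 60.5, 58.6 and 56.1 CPM in green, mixed, red and white, and at 124, 149, 232 and 197 CPM in nerve replicates 1 to 4. LOC121417960 was high in the mixed spine library alone, at 52.0 CPM against 7.46, 5.86 and 1.83 CPM in green, red and white, and at 30.6, 67.0, 86.6 and 32.8 CPM in the nerve. All 4 nerve libraries of LOC121410180 lay above its 4 spine libraries, while the mixed spine library of LOC121417960 fell within its nerve range.

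In coelomic fluid the median member was at 2.03% of its nerve mean and 5 members had no count. The exceptions were LOC121406279 at 246.5 CPM (nerve mean 375 ± 166, n = 4), LOC121412188 at 80.5 CPM and LOC121418224 at 71.0 CPM (nerve mean 137 ± 99.4, n = 4). These 3 were the members at 50% or more of the nerve mean, a level met by 72% of all genes at 10 CPM or more in radial nerve. As for the spines, this difference and those given below for the gonads follow in part from the rule. The juvenile testis had the most members at 50% or more of the nerve mean, 4 against 76.7% of all genes. LOC121412188 reached 212% of its nerve mean there, and the others were LOC121418933, at 127 CPM against 146 ± 45.1 CPM in the nerve (n = 4), LOC121432167 and LOC121422876.

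The stage 1 ovary had 1 such member, LOC121418933, against 63.5% of all genes, and the juvenile ovary had none, against 58.2%. Of the 3 juvenile gonads of indeterminate sex, 1 library had 1 such member, LOC121411550, against 72.7% of all genes, and the other 2 had none, against 72.4% and 59.6%. The median member was at 5.03% of its nerve mean in the stage 1 ovary, 3.76% in the juvenile ovary, 6.49% in the indeterminate gonads and 9.74% in the juvenile testis. All 4 values were above that of adult ovary, with provider and age differing for the juveniles.

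Differences between other types were tested with edgeR's quasi-likelihood test on the counts. Benjamini-Hochberg adjustment was over all genes tested, with a call at an adjusted p under 0.05. The rule did not compare these types with each other, but it capped each of them apart from the spines. All genes tested include genes above that cap, which could not be members. Fold changes are fitted log2 values with standard errors. Each standard error was derived as the size of the fold change divided by the square root of the test's F statistic. The first comparison set the outer surface (tube foot, interambulacral plates and peristomial membrane, 11 libraries) against the digestive tract (esophagus, gut and rectum, 11 libraries). Of the 63 members, 17 were higher in the surface tissues (27.0%, against 24.8% of the 21720 genes tested) and 17 were lower (27.0%, against 20.9%), while 29 passed in neither direction. The median log2 fold change was 0.02 over the members and 0.06 over all genes tested. The members did not lean to either side, and their shares were near those of all genes.

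The member with the largest fitted change to the surface side was LOC121421441. It was at 41.6, 59.3, 45.8 and 84.5 CPM in tube foot, at 27.9, 45.9, 33 and 23.5 CPM in the interambulacral plates and at 4.32, 16.6 and 15.8 CPM in peristomial membrane. In esophagus it was at 1.59, 2.99, 1.37 and 0.544 CPM, in rectum at 0, 0.315 and 0 CPM, and in gut it had no count in any of the 4 libraries, where 3 counts in the shallowest would be 0.127 CPM. The 11 surface libraries all lay above the 11 digestive libraries, at a mean over types of 34.2 against 0.576 CPM (fitted log2 fold change 8.01 ± 0.67, edgeR adjusted p = 9.74e-08). The fitted value averages over types on the log scale and includes gut without a count, so its size depends on the prior count and is neither a bound nor the ratio of these means. LOC121432167 was also higher on the surface, at a mean over types of 7.82 against 1.17 CPM, with overlapping libraries (3.05 ± 0.77, edgeR adjusted p = 0.00304).

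The 2 members with the largest fitted changes to the digestive side each had a surface type without a count, so the size of their fitted values has the same limit. LOC121410847 was at 0 CPM in 7 of the 11 surface libraries and at most 0.369 CPM in the others, and its esophagus and gut libraries lay between 0.819 and 5.71 CPM, with means over types of 0.0725 CPM on the surface and 1.93 CPM in the digestive tract (fitted −5.90 ± 1.02, edgeR adjusted p = 1.49e-04). LOC121425399 had no count in tube foot, reached 13.7 CPM in 1 library of the plates, and was at 20.2, 14.9, 31.5 and 3.08 CPM in gut, with means over types of 1.84 and 8.55 CPM (fitted −5.21 ± 1.12, edgeR adjusted p = 0.00108). Both overlapped between the sides, LOC121410847 through a rectum library at 0 CPM.

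Tube foot and radial canal both adjoin the radial nerve, and the rule capped both without using their difference. Of the 59 members tested (4 were too low), 17 were lower in tube foot (28.8%, against 10.9% of the 18419 genes tested) and 4 were higher (6.78%, against 15.4%), with 38 passing in neither direction. The median log2 fold change was −0.15 over the members and −0.03 over all genes. With all libraries the called members leaned to the radial canal, while the median member differed little. The count of members higher in tube foot rested on single libraries. It was 13 of 59 without radial canal replicate 2, against 3224 of the 19053 genes tested, so the members' share was then not below that of all genes. Without radial canal replicate 4 it was 1 of 59, against 2402 of 19155. The count of lower members stayed between 15 and 18.

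LOC121425399 had no count in any tube foot library and was at 119.6, 31.4, 60.9 and 38.1 CPM in radial canal replicates 1 to 4. Against 3 counts in the shallowest tube foot library, 0.138 CPM, it was at least 451-fold lower in tube foot, and at least 314-fold lower without the highest radial canal library. LOC121408355 was at 0.795, 1.57, 0.997 and 0.969 CPM in tube foot and at 271, 65.7, 12.8 and 22.6 CPM in radial canal (−6.73 ± 1.15, edgeR adjusted p = 0.00266). It varied widely in radial canal, with replicate 1 the highest, but no tube foot library came near the lowest. LOC121410442 was more even, at 45.4, 36.5, 72.9 and 44.9 CPM in tube foot and at 560, 337, 249.8 and 499.7 CPM in radial canal (−3.18 ± 0.43, edgeR adjusted p = 8.29e-04). The median over the members is the same with LOC121425399 at its bound.

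In the other direction, LOC121424068 was at 4.90, 8.72, 6.62 and 3.95 CPM in tube foot and at 0.548, 1.21, 0 and 0.0868 CPM in radial canal (3.68 ± 1.09, edgeR adjusted p = 0.0332). Its call was lost when radial canal replicate 4 or any 1 tube foot library was left out. LOC121411218, the long non-coding RNA described above, was at 29.9, 42.5, 42.4 and 42.3 CPM in tube foot and at 2.0, 13.8, 0.368 and 1.52 CPM in radial canal (3.32 ± 0.86, edgeR adjusted p = 0.0186), and its call was lost without radial canal replicate 4. The libraries did not overlap for either gene. The other members higher in tube foot were LOC121429486, at a mean of 21.3 against 4.54 CPM, and LOC121408552, at 69.9 against 27.7 CPM.

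Spines, which the rule did not use, were compared with the interambulacral plates, the other skeletal part of the body surface, which the rule capped. Of the 59 members tested, 8 were lower in spines (13.6%, against 2.87% of the 18820 genes tested) and 1 was higher (1.69%, against 4.38%), with 50 passing in neither direction. The fitted change was negative for 50 of the 59, and its median was −0.66 over the members and −0.02 over all genes. The count of lower members was 14 without the mixed spine library. It was 5 without the green and 4 without the red spine library, and 3, 2 and 5 without interambulacral plate replicates 1, 2 and 3. The calls over all genes moved as well. With all libraries 540 genes were lower, against 602, 219 and 280 without the mixed, green and red spine libraries. Without plate replicates 1, 2 and 3 they were 146, 168 and 258. The 4 spine libraries carry different colour labels, so their spread includes any difference between colours.

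LOC121407071 was at 2.64, 2.93, 1.40 and 1.14 CPM in green, mixed, red and white spines and at 24.4, 28.1, 14.8 and 22.2 CPM in the plates (−3.39 ± 0.39, edgeR adjusted p = 0.00514). LOC121424497 was at 2.32, 4.75, 1.17 and 0.343 CPM in spines and at 32, 7.77, 28.2 and 13 CPM in the plates (−3.16 ± 0.77, edgeR adjusted p = 0.0423). Neither gene overlapped between the groups, but the call of LOC121424497 was lost without any 1 of the 4 plate libraries and without the green or the red spines. The other lower members were LOC121411550, LOC121408355, LOC121414283, LOC121421767, LOC121431976 and LOC121418427.

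LOC121428641 was the member that was higher in spines. It was at 449, 634, 548 and 864 CPM in green, mixed, red and white spines and at 259.5, 265, 306 and 289.7 CPM in the plates (1.17 ± 0.19, edgeR adjusted p = 0.0129). It is also a member near the threshold of the rule, at 1542, 709, 1652 and 1217 CPM in the nerve, and its white spine library was above nerve replicate 2. Its call was lost in 1 common fit of 13 adult types and the spines, where the fitted change was 1.18 (edgeR adjusted p = 0.346). The other alternatives gave adjusted p from 2.12e-06 (DESeq2) to 0.0496 (edgeR without plate replicate 1).

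Testis was compared with the mean of 10 other adult tissues (37 libraries), leaving out ovary, eggs and radial nerve. Of the 63 members, 23 were lower in testis (36.5%, against 12.9% of the 23064 genes tested) and 2 were higher (3.17%, against 23.5%), with 38 passing in neither direction. The median log2 fold change was −0.91 over the members, against 0.15 over all genes. The called members thus leaned away from testis, while more of all genes tested were called higher there than lower. The rule capped testis, as it did the other types, so genes highest in testis could not be members. The contrast with all genes follows in part from the rule, and how large that part is was not tested. The count of lower members was 12 without testis replicate 1 and 15 without testis replicate 2. Over all genes the lower calls were 1969 and 2329 without these libraries, against 2974 with all of them.

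LOC121415960 was at 0.546, 0.179, 1.64 and 1.59 CPM in testis replicates 1 to 4 and at a mean of 14.7 CPM over the other tissues, with axial gland and rectum the highest at 32.4 and 33.8 CPM (−4.15 ± 0.69, edgeR adjusted p = 1.5e-05). LOC121410848 was at 0.0910, 0.314, 1.34 and 2.96 CPM in testis and at 21.6 CPM over the other tissues, with tube foot the highest at 68.1 CPM (−4.10 ± 0.82, edgeR adjusted p = 1.85e-04). Lantern muscle was as low in LOC121410848 as testis, at 0.807 CPM, so the libraries overlapped.

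The higher members were LOC121411550, at 35.3, 75.2, 122 and 43.6 CPM in testis and 23.5 CPM over the other tissues (1.595 ± 0.52, edgeR adjusted p = 0.0161), and LOC121410349, at 74.9, 76.6, 43.4 and 84.9 CPM in testis and 33.8 CPM over the others (0.89 ± 0.31, edgeR adjusted p = 0.0257). LOC121411550 lost its call without testis replicate 2 or 3. LOC121410349 lost its call without testis replicate 1, 2 or 4, plate replicate 1 or rectum replicate 1. The count of higher members was 0 without testis replicate 2, 1 without testis replicate 3 or 4, plate replicate 1 or rectum replicate 1, and 4 without axial gland replicate 2. Over all genes the higher calls were 5420 with all libraries. They were 4386 without testis replicate 2 and 5575 without axial gland replicate 2.

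**Figure D4:**
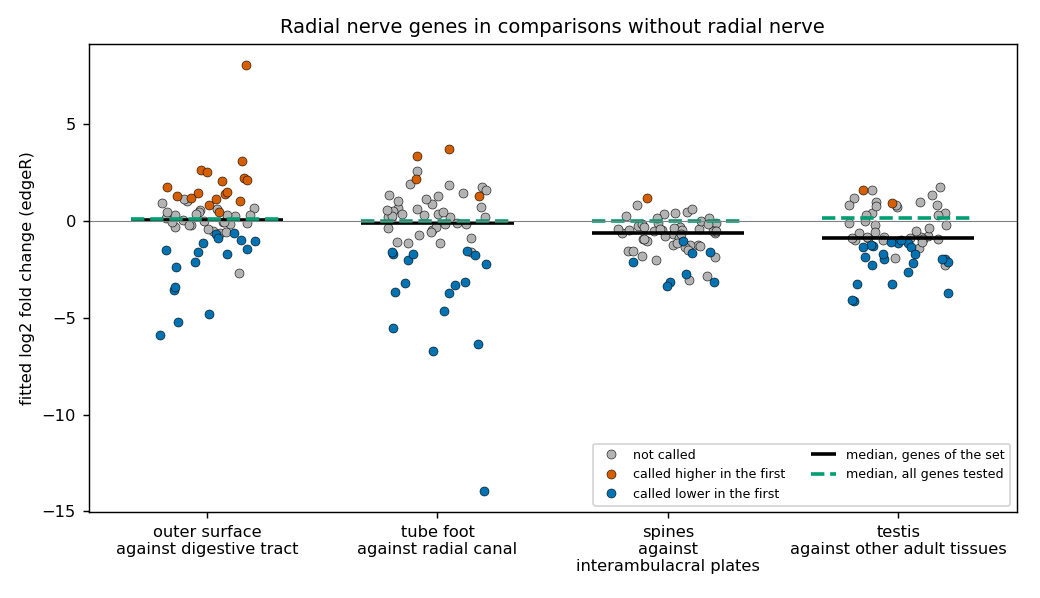
Fitted log2 fold change of each tested member in the 4 comparisons that leave radial nerve out, 1 point a gene, coloured by call, with the median of the members (black line) and of all genes tested (dashed line). The medians are 0.02, −0.15, −0.66 and −0.91 over the members; the lowest point, LOC121425399, has no count in tube foot and its fitted value is not a bound.

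A few members neighbour each other in the RefSeq gene order. LOC121415960, a long non-coding RNA, and LOC121415963, a protein-coding gene, are adjacent. LOC121415960 was at 27.4, 83.7, 199.6 and 62.5 CPM in nerve replicates 1 to 4 and LOC121415963 at 36.3, 141.5, 267 and 95.8 CPM, with rectum next for both. Axial gland was close behind rectum, at 32.4 against 33.8 CPM for LOC121415960 and at 54.3 against 54.4 CPM for LOC121415963. Both genes rank the 4 nerve libraries alike. Replicate 3 was the highest nerve library for 41 of the 63 members and replicate 1 the lowest for 33, so both ends of this order were common among the members. LOC121428432 and LOC121428545 are adjacent as well, at 48.3, 107, 170.4 and 127 CPM and at 94.1, 200.5, 295 and 225 CPM, with peristomial membrane next for both. For LOC121428432 testis was close behind it, at 45.0 against 45.9 CPM. LOC121428641 and LOC121428545 have 5 genes between them, and LOC121428641 ranks the nerve libraries differently. LOC121410848 and LOC121410854 have 4 genes between them, and nerve replicate 1 was the highest library of the former, at 304 CPM, and the lowest of the latter, at 0.543 CPM. Besides LOC121425399, the members LOC121406423, LOC121410349 and LOC121415963 overlap another annotated gene, so their counts may be mixed with it.

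At the threshold of the rule, the 3 members just inside were LOC121428641 (nerve mean 1280 ± 423 CPM against 623 CPM in axial gland, ratio 2.05), LOC121418727 (220.4 against 107 CPM in radial canal, 2.05) and LOC121407882 (94.3 against 46.6 CPM in axial gland, 2.01). The 3 genes just outside were LOC121415399 (20.2 against 9.84 CPM in lantern muscle, 1.998), LOC121426659 (52.6 against 26.4 CPM in lantern muscle, 1.98) and LOC121428459 (1461 against 744 CPM in peristomial membrane, 1.96). The ratios on the 2 sides of the threshold lay close together, while the levels ranged widely on both sides.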

How the data were processed

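The deposited table holds raw counts of reads per gene, 1 column a library, and per the submitters' processing notes STAR, featureCounts and DESeq2 were used. Versions, genome build and strand setting are not given in the sources used here. Of 25890 lines, 3 were left out (2 with a semicolon in the identifier, 1 of which had values in 61 columns, and 1 without counts), leaving 25887 genes, all matched to RefSeq symbols (Lvar_3.0, used for biotype and gene order only). CPM was computed by dividing by each library's total. Groups followed the labels.

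Tests used edgeR 4.0.16 (glmQLFit and glmQLFTest, TMM, filterByExpr; limma 3.58.1, R 4.3.3), each fitted on the libraries of its comparison only, and the code was tested on simulated data. Library number limits precision. The p-values weigh a difference against the spread between these libraries, which may not be a spread between animals. The members, lists and tests were chosen with earlier results of these data known. Genes named are the 10 of highest ratio, the 2 called members with the largest change in each direction of each test, the 5 highest in spines relative to nerve, neighbouring members and the 3 on each side of the threshold. Others were named after their values were seen, as the libraries or levels that stood out. Planned protein and promoter features, and marker names, were not analysed here because no table of them was at hand. Alternatives were TMM-scaled CPM, other pseudocounts, minimums and margins, medians, DESeq2 1.42.0, no filter, DESeq2 size factors, 1 common fit, a replicate block and leaving out each library. Those leaving out axial gland were chosen after seeing the data.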

Additional observations from a re-analysis of the deposited data

Results flagged for a closer look

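In 40 groups of 4 libraries, the highest or lowest library was checked for a gap to its nearest neighbour that was large against the group's range (Dixon's 95% critical value, which chance passes in about 1 of 20 groups), and 6 groups passed. Nerve replicate 3 stood apart in the share of counts taken by the set, at 3.89%, and radial canal replicate 1 stood apart among the radial canal libraries, at 0.676%. Nerve replicate 1 stood apart for LOC121411218, at 496 CPM, and for LOC121424068, at 102 CPM. Nerve replicate 2 stood apart for LOC121407281, at 450.5 CPM, and nerve replicate 3 for LOC121412188, at 493.4 CPM. These libraries were among those that chose the members, and no cause was tested.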

How the results depend on the processing

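The number of genes passing the rule was 63. It was 17 with a margin of 4 and 30 when all 4 nerve libraries had to exceed every other mean, and between 47 and 86 when 1 nerve or axial gland library was left out. It was 70 with TMM-scaled CPM (57 of the members among them), 67 with medians in place of means (51 of the members), 64 and 59 with pseudocounts of 0.1 and 2 CPM, 70 and 55 with minimums of 5 and 20 CPM, and 92 without the axial gland, which kept all 63. The level in axial gland, 18.4% of the nerve mean, was between 18.4% and 21.6% when 1 axial gland library was left out. Leaving out 1 library, members higher and lower ranged from 15 to 18 and from 12 to 18 on the outer surface, from 1 to 13 and from 15 to 18 in tube foot, from 1 to 1 and from 2 to 14 in spines, and from 0 to 4 and from 12 to 26 in testis. In spines, 14 members were lower by DESeq2's Wald test, and 0 were higher and 4 lower in 1 common fit of 13 adult types and the spines. Over all genes the spine comparison called 825 higher and 540 lower, against 1676 and 1253 by DESeq2 and 84 and 219 in the common fit. Leaving out 1 library, the fewest higher were 257, with 168 lower, without plate replicate 2. The fewest lower were 146, with 264 higher, without plate replicate 1. In testis, 1 member was higher when a log2 change of 1 or more in size was also required, and 1 in the common fit. The cause was not tested. Of 395 values for the genes named by the tests under an alternative, 373 kept their call, 22 lost it and 0 reversed. Replicate numbers gave no general pairing of the libraries in the comparisons checked, which left out spines and radial nerve. The correlations of same-numbered tube foot and radial canal libraries were 0.0934, −0.0530, −0.0749 and −0.0322. For numbers 1 to 4 the median correlations were 0.00565, −0.0299, −0.0124 and −0.0678 in the outer surface comparison. They were −0.0161, −0.00837, −0.00644 and −0.0196 in the testis comparison, where single pairs ranged from −0.425 to 0.425. With the replicate number as a block, 18 members were higher and 15 lower on the outer surface, 5 and 15 in tube foot, and 3 and 21 in testis; over all genes the tube foot comparison called 2377 and 1381, against 2843 and 2002 without the block. No paired analysis was possible for spines because their labels carry colours and no numbers. Members of very low count outside the nerve are limited by depth, since 3 counts were up to 0.229 CPM in an esophagus library.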
